A study of Mus musculus with 9 samples.

Results

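The genes described here make, package, take up and break down the monoamine transmitters dopamine, noradrenaline and serotonin. They are the 9 genes Th, Ddc, Dbh, Tph2, Slc6a3, Slc6a4, Slc18a2, Maoa and Maob, chosen by name among the 22192 genes of the deposited table, and all 9 were found. Brain RNA of male KM mice, as the labels call them, was sequenced; KM is an outbred stock. Mice of 5 months given oral saline (young saline), mice of 18 months given oral saline (aged saline) and mice of 18 months given GRP-E1F2 at 200 mg/kg (aged GRP-E1F2), which is a ginseng root polysaccharide, were compared, with dosing every 2 days over 4 weeks in every group. Each group held 3 libraries, called parallel samples in the labels; whether 1 group's libraries are from different mice is not said, and the p-values therefore describe only how these libraries vary, which may be technical variation.

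Monoamine neurons are few and lie in compact nuclei of the brainstem. Dopamine neurons sit mainly in the ventral midbrain, with further groups in the hypothalamus and the olfactory bulb, serotonin neurons in the raphe nuclei and noradrenaline neurons in the locus coeruleus and other hindbrain groups. Their fibres reach most of the brain, but the mRNA of their marker genes stays largely in the cell bodies, so the level in bulk tissue depends on whether those nuclei were included. The monoamine oxidases differ in this respect, since they sit on the outer mitochondrial membrane of many cell types, glia included.

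Values are TPM, a share of each library's transcripts scaled for gene length, so that levels of different genes can be set side by side. Fold changes are differences of log2(TPM + 1), which understate the change of low genes. Depth is unknown because TPM keeps no counts. Intermediate libraries were present in all 3 groups. Where the other libraries of a group were at least 1.3-fold apart in a tested gene, the value of young library 3 fell between them in 89.3% of cases, that of aged saline library 2 in 91.5% and that of GRP-E1F2 library 3 in 91.9%. Of the 9 monoamine genes, taken without that condition on size, these libraries lay between the others in 8, 8 and 7. The SDs and p-values over 3 libraries may therefore be too small, and results are also given from 2 libraries per group without those 3. That setting keeps the libraries furthest apart in most of the genes compared, and fits fewer of them. If the libraries are independent, it widens the spread by selection, so a call lost there does not show which fit is right. Photoreceptor genes were checked because the extraction protocol names retina: Pde6a, Gngt1 and Rcvrn were under 1 TPM in every library, and Crx was 0.693 to 1.28 TPM. Sag was 0.465 to 1.66 TPM in saline and 2.18 to 2.93 TPM in treated libraries, and rose in treated against aged saline libraries (log2 fold change 0.93, limma adjusted p = 0.0149). Of the Y chromosome, Eif2s3y, Ddx3y, Uty and Kdm5d reached at most 0.174 TPM, which goes against the label male; this touches Maoa and Maob, which lie on the X chromosome.

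Th encodes tyrosine hydroxylase, which makes L-DOPA and sets the rate of dopamine and noradrenaline synthesis (mm10 chromosome 7, 142892779 to 142899995). It was 8.24, 10.8 and 9.55 TPM in young saline libraries 1, 2 and 3, 5.45, 8.74 and 11.7 TPM in aged saline libraries 1, 2 and 3, and 4.76, 20.2 and 13.0 TPM in GRP-E1F2 libraries 1, 2 and 3. The 3 groups overlapped, and the treated libraries held both the lowest and the highest value. Ddc, aromatic L-amino acid decarboxylase, makes dopamine from L-DOPA and serotonin from 5-hydroxytryptophan (chromosome 11, 11814101 to 11898144). It was 10.9, 13.0 and 11.5 TPM in young saline, 4.07, 9.15 and 13.0 TPM in aged saline and 3.61, 5.91 and 4.69 TPM in GRP-E1F2 libraries. Every treated value of Ddc lay under every young value, while aged saline library 1 lay among the treated ones.

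Slc6a3 encodes the dopamine transporter, which takes dopamine back into the nerve ending and is a defining gene of midbrain dopamine neurons (chromosome 13, 73536128 to 73578672). Its levels were 5.17, 6.02 and 5.92 TPM in young saline libraries, 0.078, 3.43 and 6.42 TPM in aged saline libraries and 0.116, 0.432 and 0.202 TPM in GRP-E1F2 libraries. The young libraries were close together, the aged saline libraries ran from the lowest to the highest of all 9, and the treated libraries were all under 0.5 TPM. Slc18a2 encodes the vesicular monoamine transporter VMAT2, which loads all of these transmitters into vesicles (chromosome 19, 59260878 to 59296012). It stood at 2.14, 2.62 and 2.52 TPM in young saline, 0.23, 1.28 and 3.15 TPM in aged saline and 0.143, 0.453 and 0.334 TPM in GRP-E1F2 libraries. Dbh, dopamine beta-hydroxylase, makes noradrenaline from dopamine in vesicles (chromosome 2, 27165507 to 27183204). It was low throughout, at 0.501 to 0.647 TPM in young saline, 0.069, 0.725 and 1.34 TPM in aged saline and 0.183 to 0.384 TPM in GRP-E1F2 libraries. Slc6a2, the noradrenaline transporter, was under 1 TPM in every library as well.

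Tph2 encodes the tryptophan hydroxylase of brain serotonin neurons, the rate-limiting step of serotonin synthesis (chromosome 10, 115078641 to 115185022). It was 2.1, 2.24 and 2.12 TPM in young saline libraries, 0.185, 2.21 and 4.23 TPM in aged saline libraries and 0.123, 0.057 and 0.09 TPM in GRP-E1F2 libraries. Slc6a4, the serotonin transporter (chromosome 11, 76998597 to 77032343), was 1.23, 1.34 and 1.11 TPM in young saline and listed at 0, then at 1.62 and 2.87 TPM in aged saline libraries. In GRP-E1F2 libraries it was 0.045 TPM, listed at 0, and 0.022 TPM. The 2 serotonin genes thus ranked the aged saline libraries alike, with library 1 near or at 0 and library 3 above all young libraries. In the 5 libraries where both were over 0.1 TPM, Slc6a4 stood at 0.524 to 0.733 of the TPM of Tph2. The peripheral isozyme Tph1 was under 1 TPM in all 9 libraries. Of 7 mast cell and platelet genes Cpa3, Mcpt4, Tpsb2 and Itga2b were under 1 TPM throughout, and Ppbp was except for 1.83 TPM in aged saline library 1. Pf4 was 4.55 to 12.3 TPM and Kit, which neurons also make, 4.9 to 25.3 TPM.

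**Figure D1:**
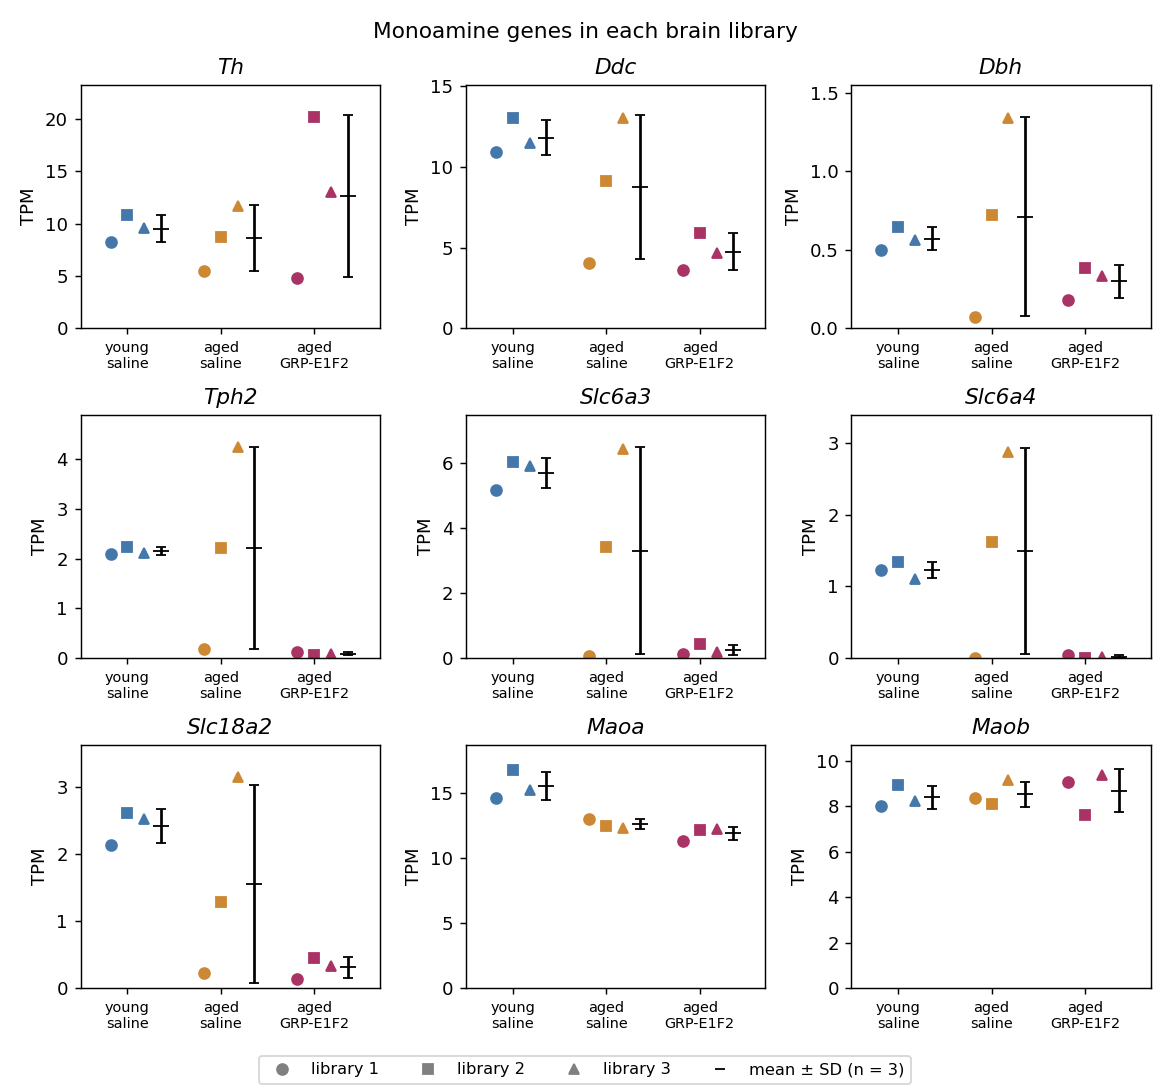
TPM of the 9 genes in each library, with linear axes from 0, symbols for libraries 1 to 3 of each group, and the group mean ± SD (n = 3) at the right of each group. Aged saline library 1 and the GRP-E1F2 libraries hold the 4 lowest values of Ddc, Dbh, Tph2, Slc6a3, Slc6a4 and Slc18a2. Th, Maoa and Maob do not follow that order, and its share over all genes was not counted.

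In 6 of the 9 genes (Ddc, Dbh, Tph2, Slc6a3, Slc6a4 and Slc18a2) the 4 lowest values came from the same 4 libraries, aged saline library 1 and GRP-E1F2 libraries 1, 2 and 3. This order was noticed in the data and is a description without a test. How many of all genes have it was not counted, so it cannot be called particular to these genes. Treated values lay under all young values in 38.5% of all genes tested. The step was widest for Slc6a4, from 0.0452 to 1.11 TPM between the highest of the 4 and the lowest of the other 5 libraries, and 11.3-fold for Tph2. It was 7.94-fold for Slc6a3, 2.82-fold for Slc18a2, 1.55-fold for Ddc and 1.3-fold for Dbh. Within the aged saline group alone Slc6a3 differed 82.7-fold between its highest and lowest library, Tph2 22.8-fold and Dbh 19.4-fold, against 1.16-fold, 1.07-fold and 1.29-fold within the young group. The lowest values are so small that, with the depth unknown, the larger ratios have no stated precision. In bulk tissue, fewer cells of a type and less RNA per cell cannot be told apart.

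The upstream sequences of 4 of these genes are shown because Th, Slc18a2, Tph2 and Slc6a4 belong to the same neurons in pairs and yet differ in how closely they moved together. Each run covers 250 bases before to 20 bases after the start in RefSeq (GRCm38.p6, the build also called mm10), 5′ to 3′ on the strand of the gene, and capitals mark matches to the motifs named after them. The windows are chr7:142899976-142900245 (minus strand) for Th, chr19:59260628-59260897 (plus) for Slc18a2, chr10:115185003-115185272 (minus) for Tph2 and chr11:76998347-76998616 (plus) for Slc6a4.
Th: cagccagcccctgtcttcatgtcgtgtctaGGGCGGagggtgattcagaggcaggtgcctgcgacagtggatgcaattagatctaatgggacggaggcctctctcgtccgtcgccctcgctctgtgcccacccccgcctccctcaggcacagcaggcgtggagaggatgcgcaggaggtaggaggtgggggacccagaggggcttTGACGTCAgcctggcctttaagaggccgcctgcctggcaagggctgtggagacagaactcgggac
Slc18a2: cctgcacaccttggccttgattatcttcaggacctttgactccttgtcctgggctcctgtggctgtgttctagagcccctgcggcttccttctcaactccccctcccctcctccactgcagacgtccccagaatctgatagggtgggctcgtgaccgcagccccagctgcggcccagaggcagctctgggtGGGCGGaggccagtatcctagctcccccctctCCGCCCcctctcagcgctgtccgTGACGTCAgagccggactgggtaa
Tph2: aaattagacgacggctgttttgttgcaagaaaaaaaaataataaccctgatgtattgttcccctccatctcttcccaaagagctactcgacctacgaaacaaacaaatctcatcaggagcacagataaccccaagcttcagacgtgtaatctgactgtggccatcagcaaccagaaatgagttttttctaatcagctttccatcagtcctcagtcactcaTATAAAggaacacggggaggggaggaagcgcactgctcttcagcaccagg
Slc6a4: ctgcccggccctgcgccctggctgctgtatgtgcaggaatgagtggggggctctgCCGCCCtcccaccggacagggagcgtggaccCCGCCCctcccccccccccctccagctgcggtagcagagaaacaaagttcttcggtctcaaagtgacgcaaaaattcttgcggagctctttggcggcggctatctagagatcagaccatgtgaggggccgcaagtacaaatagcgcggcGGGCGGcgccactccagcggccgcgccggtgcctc

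The motifs searched on both strands were the cAMP response element TGACGTCA, the GC box GGGCGG, the TATA box TATAAA, the element AAAGGTCA bound by NR4A receptors and the E-box CACGTG. No pair of these letter strings shares a match position in the 4 windows shown. TGACGTCA lay 45 to 38 bases before the start of Th and across the start of Slc18a2, from base -4 to base 4, and 1.74% of 32540 RefSeq promoter windows of the same length held it. TATAAA lay 30 to 25 bases before the start of Tph2, where 12.8% of the windows held it. GGGCGG was found in the windows of Th, Slc18a2, Slc6a4, Slc6a3 and Maoa, and in 34.4% of all windows. The Slc6a3 window, chr13:73536497-73536766, lies inside the span of the gene given above, so its matches are not upstream of the whole gene. The Slc6a4 window held 22 CpG dinucleotides and the Tph2 window 7, against a median of 6. A match is only a run of letters. Maob had no entry in the promoter table.

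The first comparison, of age under saline, set the 18-month against the 5-month libraries. Maoa fell, from 15.5 ± 1.05 TPM (SD, n = 3) in young to 12.6 ± 0.399 TPM in aged saline libraries (log2 fold change -0.28, SE 0.0675, limma adjusted p = 0.0266), and all aged values lay under all young ones, as they did for 26.8% of all genes. It was the only 1 of the 7 members that passed the filter of a mean of at least 1 TPM to be called, where 16.7% of all 13301 genes tested were called and 11.2% fell. Dbh and Slc6a4 did not reach that mean. The neuronal genes had wide spreads in the aged group and none of those tested was called. Slc6a3 was 5.70 ± 0.465 and 3.31 ± 3.18 TPM (log2 fold change -1.03, adjusted p = 0.229) and Slc18a2 was 2.42 ± 0.253 and 1.55 ± 1.48 TPM (adjusted p = 0.267). Tph2 was 2.15 ± 0.0758 and 2.21 ± 2.02 TPM (adjusted p = 0.753), and Th was 9.54 ± 1.3 and 8.63 ± 3.12 TPM (adjusted p = 0.803).

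Several of these values turned on aged saline library 1. Without it the log2 fold change of Slc6a3 was -0.22 (adjusted p = 0.487), and those of Tph2 and Th turned to 0.38 and 0.08 (adjusted p = 0.194 and 0.915). Without aged saline library 3 Slc18a2 was called too, at -1.03 (adjusted p = 0.0254), where 19.3% of all genes were called. The Maoa fall was not called without young library 2 (adjusted p = 0.0956), young library 3 (0.0924), aged saline library 2 (0.102) or treated library 3 (0.0533), while its fold change stayed between -0.32 and -0.23. With 2 libraries per group Maoa had the same -0.28 (adjusted p = 0.49), and 0 of the 7 members were called at adjusted p or at an unadjusted p under 0.05, where limma called 0.0226% of all genes.

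The second comparison, of treatment at 18 months, set GRP-E1F2 against saline. Limma called none of the 7 tested members (0), where 20.8% of all genes were called and 13.4% fell, and 3 members had an unadjusted p under 0.05. All treated values of Tph2 lay under all aged saline values, at 0.0899 ± 0.0328 against 2.21 ± 2.02 TPM (log2 fold change -1.31, SE 0.425, adjusted p = 0.0573). Maoa also did not overlap, at 11.9 ± 0.497 and 12.6 ± 0.399 TPM (-0.08, adjusted p = 0.448), so 2 of 7 members lay wholly lower, where 21.5% of all genes did. Slc6a3 was 0.25 ± 0.164 TPM with GRP-E1F2 (-1.40, adjusted p = 0.109), Slc18a2 0.31 ± 0.156 TPM (-0.80, adjusted p = 0.14) and Ddc 4.73 ± 1.15 TPM (-0.66, adjusted p = 0.169). Th was 12.6 ± 7.70 TPM with GRP-E1F2 (0.36, adjusted p = 0.579).

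Here too the call turned on aged saline library 1. Without it 4 of the 7 members fell, Tph2 (-1.91, adjusted p = 0.00062), Slc6a3 (-2.21, 0.000612), Ddc (-1.07, 0.00789) and Slc18a2 (-1.24, 0.0101), where 13.9% of all genes fell and 23% were called. Tph2, Slc6a3 and Slc18a2 passed the filter through the saline groups only, so this count leans towards falls. With a pseudocount of 0.1 TPM Tph2 alone was called (-2.91, adjusted p = 0.0352), where 20.4% of all genes were. With 2 libraries per group 0 members were called by limma and 0 had an unadjusted p under 0.05, where 1.86% of all genes were called.

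The third comparison set aged GRP-E1F2 against young saline libraries and so holds age and treatment together. It shares its libraries with the other comparisons, and the 3 sets of values are not independent. Of the 7 tested members 5 fell, where 29.4% of all genes fell and 46.6% were called in either direction. They were Slc6a3 (log2 fold change -2.43, SE 0.562, adjusted p = 0.00684), Tph2 (-1.53, adjusted p = 0.0158), Slc18a2 (-1.39, adjusted p = 0.0106), Ddc (-1.17, adjusted p = 0.0141) and Maoa (-0.36, adjusted p = 0.00243). The mean TPM of Slc6a3 was 22.8-fold lower in the treated libraries, that of Tph2 24-fold, of Slc18a2 7.82-fold and of Ddc 2.49-fold. Slc6a3, Tph2 and Slc18a2 passed the filter through the saline groups, since their treated values were all under 1 TPM, so the count over tested members leans towards falls. The 2 members under the filter were fitted without it: Slc6a4 had a log2 fold change of -1.12 (adjusted p = 0.0604) and Dbh of -0.27 (adjusted p = 0.398), neither being called, where 38% of all genes were in that fit. Their treated values lay under all young ones, as did those of the 5 called genes, against 38.5% of the genes that passed the filter. Every one of the 5 calls held without any 1 library, but with 2 libraries per group none did (adjusted p from 0.0926 for Slc6a3 to 0.143 for Tph2; all 5 had an unadjusted p under 0.05), where 12.9% of all genes were called. The median over the 7 tested members was -1.17, and over all genes -0.07.

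**Figure D2:**
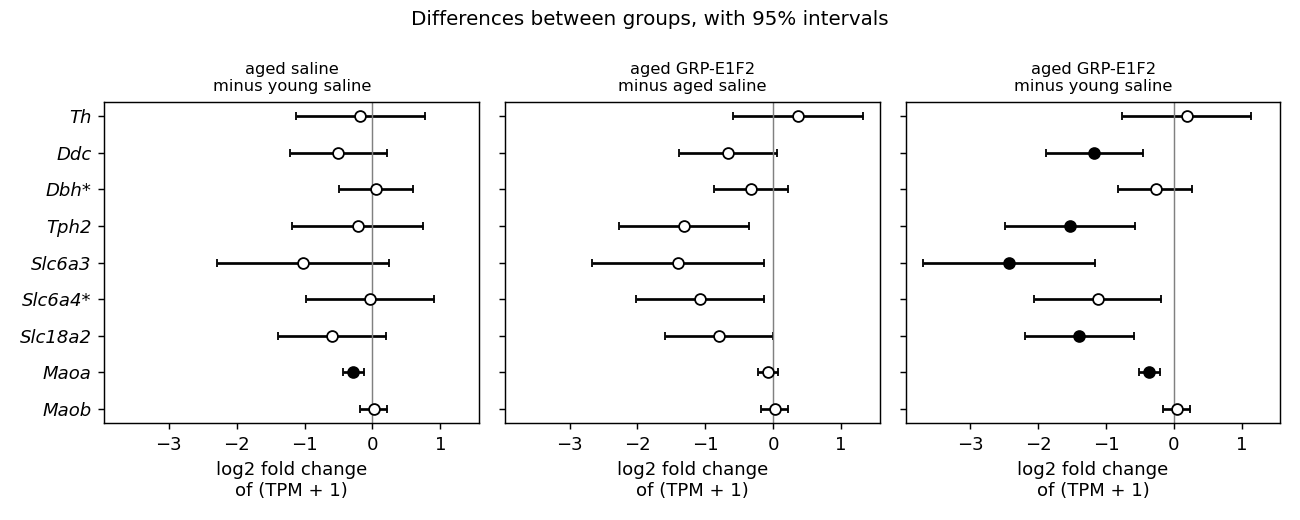
Log2 fold changes of (TPM + 1) with 95% intervals from limma for the 3 comparisons. Filled circles mark an adjusted p under 0.05; genes with an asterisk were fitted without the filter on low values. The filled points are Maoa in the left panel, none in the middle panel and Ddc, Tph2, Slc6a3, Slc18a2 and Maoa in the right panel.

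Th and the other dopamine genes parted in aged saline library 1 and in the treated libraries. Slc6a3 stood at 0.555 to 0.627 of the TPM of Th in the young libraries, at 0.0142, 0.393 and 0.55 in aged saline libraries 1, 2 and 3, and at 0.0156 to 0.0243 in the GRP-E1F2 libraries. Aged saline library 1 thus lay near the treated ones. With Slc6a3 at 0.078 TPM there and the depth unknown, its rank among them has no stated precision. Ddc stood at 1.2 to 1.32 of Th in young, 0.746 to 1.11 in aged saline and 0.293 to 0.757 in treated libraries. As differences of log2(TPM + 1) within a library, Slc6a3 to Th was -0.65 ± 0.0922 in young, -1.50 ± 0.956 in aged saline and -3.26 ± 0.794 in treated libraries (SD, n = 3). The exact two-sided permutation test of treated against young gave p = 0.1, the smallest that 3 against 3 allow, and p = 0.164 after adjustment over 18 such tests on 6 gene pairs. None of the 18 could pass 0.05, so they give sizes, not calls. The Slc6a3 to Slc18a2 ratio, between the uptake and vesicle transporters of the same neurons, was 2.3 to 2.42 in young, 0.338, 2.68 and 2.04 in aged saline libraries 1, 2 and 3 and 0.604 to 0.953 in treated libraries. It was thus lowest in aged saline library 1, on 0.078 TPM of Slc6a3 and 0.23 TPM of Slc18a2, values too low for a firm rank.

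**Figure D3:**
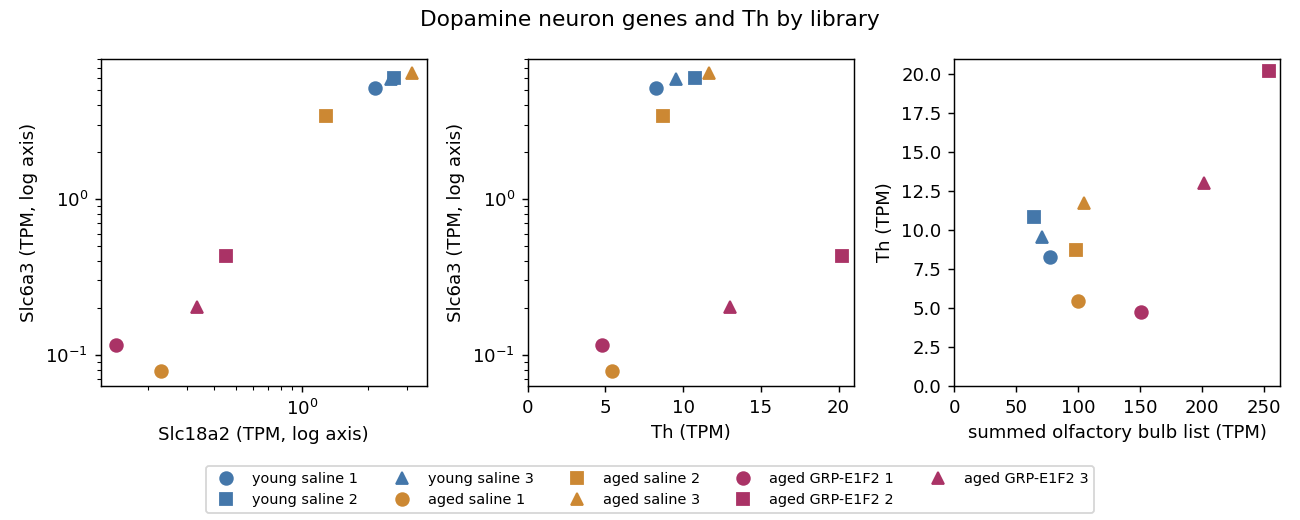
Each point is 1 library; the left panel sets Slc6a3 against Slc18a2 (TPM, log axes), the middle panel Slc6a3 (log axis) against Th, and the right panel Th against the summed TPM of 9 olfactory bulb genes. Slc6a3 and Slc18a2 order the libraries much alike, while GRP-E1F2 library 2 combines the highest Th, 20.2 TPM, with 0.432 TPM of Slc6a3 and the highest olfactory bulb sum, 254 TPM.

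Markers of brain regions differed between the same libraries. The summed TPM of 9 olfactory bulb genes, a region whose dopamine interneurons express Th, was 64.3 to 77.5 in young, 98.4 to 105 in aged saline and 151, 254 and 202 in GRP-E1F2 libraries 1, 2 and 3. Meis2, the highest gene of that list, was 30.8, 16.1 and 23.1 TPM in young, 41.6, 41.2 and 44.3 TPM in aged saline and 79.4, 121 and 99.8 TPM in treated libraries. Of the 8 list genes that were tested 5 rose and 2 fell in treated against young libraries. In that comparison 46.6% of all genes were called and 29.4% fell. The 2 that fell were Eomes, from 3.82 ± 0.51 to 2.05 ± 1.14 TPM, and Reln, from 12.7 ± 1.7 to 5.21 ± 0.771 TPM. Meis2 alone made up 121 of the 254 TPM in GRP-E1F2 library 2. The 11 Hox genes, which mark hindbrain and spinal cord, summed to 42.4 to 54.8 TPM in young libraries, to 0.127, 3.92 and 7.35 TPM in aged saline libraries 1, 2 and 3 and to 0.59 to 0.794 TPM in treated libraries. Hoxb5, the highest of them, was listed at 0 in aged saline library 1 and in all treated libraries. Aged saline library 1 was thus the lowest of its group in Hox genes as well as in Tph2 and Slc6a4. The 10 hypothalamic genes summed to 211, 21.6 and 118 TPM in young libraries 1, 2 and 3, to 27, 45.1 and 53.8 TPM in aged saline and to 12.4, 202 and 114 TPM in GRP-E1F2 libraries. In GRP-E1F2 library 2 Avp (99.7 TPM) and Oxt (60 TPM) were the highest of them, while Hcrt was listed at 0 and Pmch was 0.81 TPM. The 6 pituitary genes summed to 2.42 to 3.06 TPM in young, 17.3 to 22.5 TPM in aged saline and 1.6, 873 and 441 TPM in GRP-E1F2 libraries 1, 2 and 3. In the treated group Th had the order of the olfactory bulb, hypothalamic and pituitary sums. The striatal, cholinergic, cerebellar, oligodendrocyte, microglial and endothelial sums had that order too. So did the sum of other midbrain dopamine neuron genes (12.3, 36.3 and 24.5 TPM), and Slc6a3, Slc18a2, Ddc and Dbh themselves. The neocortical, astrocyte and choroid plexus sums had the reverse order, as did Tph2 and Slc6a4. Since GRP-E1F2 library 3 lay between the others in 91.9% of the genes compared, such a shared order is common. In the young group Th did not have the order of the olfactory bulb and hypothalamic sums. There library 1 had the lowest Th and the highest of both sums. In the aged saline group Th had the order of the hypothalamic sum but not of the olfactory bulb sum (100, 98.4 and 105 TPM). There it ran opposite to the pituitary sum (22.5, 17.7 and 17.3 TPM). Cerebellar genes summed to 3244 to 4695 TPM in young, 1973 to 2359 TPM in aged saline and 135 to 145 TPM in treated libraries. What part these differences have in the monoamine results was not tested, and the design does not tell the tissue taken apart from group.

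Transcription factors that specify monoamine neurons were mostly too low to test, with 5 of 13 over the filter. In the third comparison 2 of the 5 fell and 0 rose, where 29.4% of all genes fell. En1, needed by midbrain dopamine neurons, was 3.74 ± 0.854 TPM in young, 2.60 ± 0.336 in aged saline and 0.603 ± 0.23 TPM in treated libraries, and it fell with GRP-E1F2 against aged saline (log2 fold change -1.17, adjusted p = 0.00101). The cerebellar sum given above fell in the same group order, and whether En1 follows it rather than dopamine neurons was not tested. Pitx3, another factor of midbrain dopamine neurons, was 8.86 ± 0.725, 10.4 ± 0.239 and 9.48 ± 1 TPM in young, aged saline and treated libraries, with no call (treated against young 0.09, adjusted p = 0.437). Nkx2-2, a factor of the serotonin lineage and of oligodendrocyte precursors, was 9.15 ± 0.69 TPM in young and 5.28 ± 1.33 TPM in treated libraries (-0.71, adjusted p = 0.00472). Nr4a2, which switches on Th and Slc6a3 in dopamine neurons but is also made in cortex, was 14.6 ± 0.475, 14.9 ± 1.87 and 12.1 ± 0.857 TPM in young, aged saline and treated libraries, with no call (adjusted p = 0.0515 for treated against young). Each of these calls of En1 and Nkx2-2 held without any 1 library, but with 2 libraries per group En1 alone fell in the third comparison. Fev, the factor that defines serotonin neurons, was chosen after its values were seen. It was 0.658, 1.14 and 0.667 TPM in young libraries and 0.0863, 0.562 and 1.04 TPM in aged saline libraries, the same order as Tph2 there, and was listed at 0 in all treated libraries. Gata2, another of the 5 tested, was 2.90 ± 0.316, 2.39 ± 0.585 and 2.33 ± 0.743 TPM in young, aged saline and treated libraries. Its groups overlapped in each comparison with no call (limma adjusted p = 0.435, 0.908 and 0.282), and Nkx2-2 overlapped with age (0.283). The serotonin lineage factors Gata3 and Lmx1b, also chosen after their values were seen, were lower in aged saline than in young libraries even where Tph2 was not. Gata3 was 1.08 to 1.36 TPM in young, 0, 0.356 and 0.769 TPM in aged saline and at most 0.227 TPM in treated libraries, and Lmx1b was 0.682 to 0.857, 0.036 to 0.109 and at most 0.0394 TPM.

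Of 8 other genes of midbrain dopamine neurons 6 were tested, and they did not move one way. With age 1 fell (Ret), against aged saline 2 fell (Ret and Otx2) and 1 rose (Ntsr1), and against young saline 2 fell (Ret and Otx2) and 2 rose (Ntsr1 and Sox6), where 11.2%, 13.4% and 29.4% of all genes fell and 16.7%, 20.8% and 46.6% were called. These genes are named because they were called. Dlk1, the highest of the list, was 17.3 ± 0.596, 6.9 ± 5.81 and 11.2 ± 8.24 TPM in young, aged saline and treated libraries, with no call. Chrna6 and Calcr were too low to test. Chrna6, given after its values were seen, was 0.515 to 0.606 TPM in young and 0.0608, 0.592 and 0.811 TPM in aged saline libraries. In treated libraries it was 0.0303 to 0.118 TPM, while Calcr overlapped in each comparison. Ret, a receptor component for GDNF-family factors, was 12.5 ± 1.37, 5.59 ± 1.65 and 1.92 ± 0.156 TPM in young, aged saline and treated libraries. Otx2, which the choroid plexus also makes, was 2.66 ± 0.172, 3.87 ± 1.01 and 0.826 ± 0.21 TPM. The neurotensin receptor gene Ntsr1, also made in cortex, was 1.56 ± 0.357, 1.83 ± 0.436 and 3.15 ± 0.0921 TPM, and its rise against aged saline was not called without aged saline library 2 or treated library 3. With 2 libraries per group Ret was called only against young saline, Otx2 against both, and Ntsr1 and Sox6 in neither.

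Tetrahydrobiopterin is the cofactor that tyrosine and tryptophan hydroxylases need. All 6 of its genes were tested, and 2 fell with age, 1 rose and 3 fell with GRP-E1F2 against aged saline, and 1 rose and 3 fell against young saline. Over all genes 16.7%, 20.8% and 46.6% were called and 11.2%, 13.4% and 29.4% fell. Gchfr, the feedback regulator of the first enzyme GTP cyclohydrolase, was 80.2 ± 8.3 TPM in young, 57.7 ± 5.41 in aged saline and 16.4 ± 10.4 TPM in treated libraries (treated against aged saline -1.96, adjusted p = 0.00931). GTP cyclohydrolase itself, Gch1, was low, at 1.07 to 2.06 TPM on average, with no call. Qdpr, which regenerates the cofactor, was 296 ± 11.7, 255 ± 13.5 and 224 ± 6.94 TPM and fell in each comparison (adjusted p = 0.0358, 0.0466 and 0.000558). Pcbd1, another recycling enzyme, fell with age from 52.5 ± 3.55 to 40.3 ± 1.38 TPM (adjusted p = 0.0346) and was 58.1 ± 7.99 TPM in treated libraries, higher than in aged saline ones (adjusted p = 0.00734), which both comparisons share. None of the 6 (0) was called with age under quantile normalisation or median-of-ratios scaling, or without young library 2, young library 3, aged saline library 1, aged saline library 2 or treated library 3. For treated against aged saline, Gchfr and Pcbd1 were called without any 1 library, while Qdpr was called only with all libraries or without aged saline library 1, and under neither of those scalings. In that comparison Spr, the sepiapterin reductase gene, was not called under them either. Of the fits without 1 library, it was called only without aged saline library 1 or without treated library 1. With 2 libraries per group only Gchfr in the third comparison was called.

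Of 14 further monoamine enzymes and transporters 9 were tested. With age 2 fell and 0 rose, with GRP-E1F2 against aged saline 3 fell and 0 rose, and against young saline 4 fell and 3 rose, where 11.2%, 13.4% and 29.4% of all genes fell. Aldh1a1, an aldehyde dehydrogenase found in a subset of midbrain dopamine neurons and in other cells, fell from 72.7 ± 12 to 29.3 ± 5.72 TPM with age and to 9.23 ± 0.169 TPM with GRP-E1F2 (log2 fold changes -1.29 and -1.55, adjusted p = 0.00221 and 0.000158). Slc29a4, the plasma membrane monoamine transporter, was 17.8 ± 2.6, 10.8 ± 2.45 and 5.21 ± 1.19 TPM (adjusted p = 0.0355 with age and 0.0078 for treated against aged saline). Hdc, the histidine decarboxylase that makes histamine, was 1.84 ± 0.172, 1.42 ± 0.365 and 0.274 ± 0.0568 TPM, and fell with GRP-E1F2 (-0.91, adjusted p = 0.00117). The age fall of Slc29a4 was not called under quantile normalisation or median-of-ratios scaling, or without young library 2, young library 3, aged saline library 1, aged saline library 2 or treated library 3, while the falls of Aldh1a1 in both comparisons, and of Hdc and Slc29a4 with GRP-E1F2, held without any 1 library. With 2 libraries per group Aldh1a1 alone fell with GRP-E1F2 against aged saline, and Hdc, Slc29a4 and Aldh1a1 fell against young saline.

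The oxidases Maoa and Maob lie next to each other on the X chromosome (16619698 to 16687812 and 16709281 to 16817366). Maoa prefers serotonin and noradrenaline, while Maob, abundant in astrocytes and serotonin neurons, prefers phenylethylamine. Maoa was 14.6, 16.7 and 15.2 TPM in young saline, 13.0, 12.4 and 12.3 TPM in aged saline and 11.3, 12.1 and 12.2 TPM in GRP-E1F2 libraries, so that every young value lay above all 6 others. Maob was 8, 8.95 and 8.23 TPM in young, 8.36, 8.10 and 9.15 TPM in aged saline and 9.09, 7.60 and 9.36 TPM in treated libraries, and the groups overlapped. Its log2 fold change was 0.02 with age (95% interval -0.18 to 0.22), 0.02 for treated against aged saline (-0.18 to 0.22) and 0.04 for treated against young (-0.16 to 0.24), so changes larger than those bounds lie outside the intervals. The Maoa to Maob ratio was 1.83 to 1.86 in young, 1.34 to 1.56 in aged saline and 1.24 to 1.6 in treated libraries. As log2(TPM + 1) differences it was 0.81 ± 0.0164, 0.51 ± 0.109 and 0.41 ± 0.174 (n = 3), with an exact permutation p = 0.1 for aged and for treated against young saline.

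**Figure D4:**
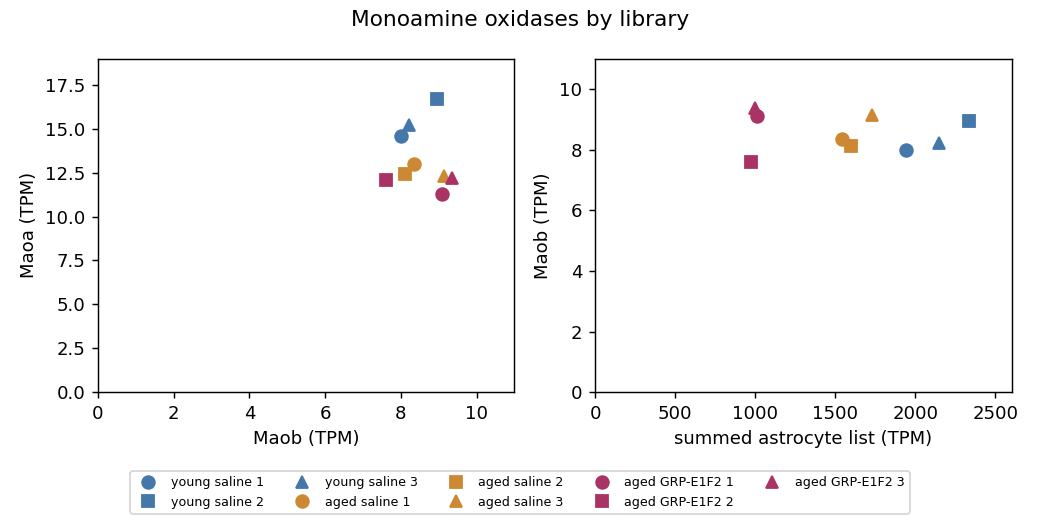
Each point is 1 library, on linear axes from 0; the left panel sets Maoa against Maob (TPM) and the right panel Maob against the summed TPM of 8 astrocyte genes. The young libraries lie above the other 6 in Maoa, and Maob stays between 7.60 and 9.36 TPM while the astrocyte sum runs from 976 to 2334 TPM.

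The 8 astrocyte genes, of which Aldoc was the highest, summed to 1943 to 2334 TPM in young, 1544 to 1726 TPM in aged saline and 976 to 1010 TPM in treated libraries. Of these 8 genes 5 fell with age, 5 fell with GRP-E1F2 against aged saline, and 7 fell and 1 rose against young saline. Brain endothelial genes summed to 294 to 311 TPM in young, 251 to 268 TPM in aged saline and 217 to 264 TPM in treated libraries, and 1, 0 and 4 of the 7 fell in the 3 comparisons. Over all genes 11.2%, 13.4% and 29.4% fell. Whether either cell type has a part in the oxidase values was not tested.

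The genes whose pattern over the 9 libraries was most like each member were taken by Pearson's correlation of log2(TPM + 1) among the 12918 tested genes with a name other than a predicted-gene or pseudogene label, as a description, since the libraries fall into clusters and are not independent. For Slc6a4 the nearest gene was Tph2 (r = 0.99), and for Slc6a3 and Slc18a2 each was the third nearest of the other (r = 0.99). Slc18a2 was also the third nearest to Ddc (r = 0.99). The nearest to Tph2 was Atp5d, a subunit of ATP synthase, at 824, 821 and 729 TPM on average in young, aged saline and treated libraries, and the nearest to Slc6a3 was Ndufa13, a subunit of complex I (707, 636 and 545 TPM). Mid1ip1 was nearest to Ddc and Slc18a2, and Plcg2 to Dbh. For Th it was Ngfr, the p75 neurotrophin receptor (r = 0.96), which was 1.24, 5.63 and 3.67 TPM in GRP-E1F2 libraries 1, 2 and 3, highest like Th in library 2. Add3 was nearest to Maoa (r = 0.99) and Cdk9 to Maob (r = 0.90). With so many genes and so few libraries, high values of r arise readily.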

How the data were processed

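The 9 libraries are RNA-seq of mouse brain, in 3 groups of 3. The deposited values are TPM, computed by the authors per gene and library; each library sums to 999667 to 999929. The submitters' processing notes name mm10, SAMtools 0.1.18, HISAT2, GATK and Picard. Not given in the sources used here are the quantifier, annotation and strand setting. Of all genes, 13301 had an average over the libraries of 1 TPM or more; their log2(TPM + 1) values went into 1 linear model in limma (version 3.58.1, R 4.3.3; eBayes with trend, all 9 libraries), with Benjamini-Hochberg adjustment over all genes and calls at an adjusted p under 0.05. The fit was first run on simulated data whose libraries varied independently. The libraries here may not, so that run does not bear on whether their p-values are too small. Ratios within a library were compared by exact two-sided permutation tests in scipy 1.17.1. Positions come from RefSeq (GRCm38.p6). Named were all 9 members, the 3 genes per pathway list with the smallest p, the highest gene per marker list where it is described, and the 3 genes nearest each member by correlation, of which some are given; others are said to be chosen later. The members and lists were chosen with earlier results of these data known. Depth is unknown, so no counting error is given. Results for some genes of the lists are not reported here.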

Additional observations from a re-analysis of the deposited data

How the results depend on the processing

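The fits were repeated with 20 other settings. With 2 libraries per group the genes called with age, for GRP-E1F2 against aged saline and for GRP-E1F2 against young saline were 3, 248 and 1713 in place of 2217, 2771 and 6204, and the members called were 0 in each, in place of 1, 0 and 5; fewer libraries were fitted. Leaving out 1 library gave 371 to 2635, 1345 to 3060 and 4737 to 6635 genes, and 0 to 2, 0 to 4 and 5 to 5 members. A pseudocount of 0.1 called 1 member, Tph2, for GRP-E1F2 against aged saline. A mean of at least 5 TPM called 2 against young saline, since only 4 members were then tested. Signs turned only where fold changes were small or the spread wide. Without 1 library Th with age ran from -0.40 to 0.08 and Tph2 from -0.69 to 0.38; Th ran from -0.05 to 0.89 against aged and from -0.23 to 0.71 against young saline. Maob ran from -0.02 to 0.06, -0.03 to 0.10 and -0.01 to 0.12 over the 3 comparisons, and with 2 libraries per group it was -0.07 against aged and -0.02 against young saline. The difference of Slc6a4 to Tph2 with age was 0.18, and -0.06 with a pseudocount of 0.1; both genes are near 0 in some libraries. Median-of-ratios scaling and quantile normalisation changed no call of a member. The replicate numbers did not pair the libraries (correlations of deviations from -0.0549 to 0.126), and with the replicate block 2055, 2589 and 5944 genes and 1, 0 and 5 members were called. The low levels of Dbh, Slc6a4 and Tph2 limit what can be said of them, since the depth is unknown.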
